A study of Homo sapiens with 30 samples.

Results

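The 10 genes described here encode the enzymes, transporters and granule proteins with which a sympathetic cell makes, stores, takes back and degrades catecholamines: TH, DDC, DBH and GCH1 for synthesis, SLC18A1 and SLC18A2 for storage, SLC6A2 for reuptake, MAOA for breakdown, and the granins CHGA and CHGB. They were chosen by name for their place in this pathway, with earlier results of these data known. The choice was out of 68608 genes present in any of the 3 expression tables. All 10 were found by Ensembl gene ID in each table. IMR32, SK-N-BE(2)c and NGP, 3 established human neuroblastoma lines, were sequenced after lipofection of antisense oligonucleotides (ASOs) at 100 nM. Of the 4 ASOs, 3 were directed at NESPR, a long non-coding RNA that the series' title calls adrenergic-specific, and 1 was a negative control ASO (NCA). The 30 libraries formed 9 groups. IMR32 had ASO1, ASO2 and NCA groups with n = 4 each, while NGP and SK-N-BE(2)c each had ASO2, ASO10 and NCA groups with n = 3 each. Every group was thus a transfected culture of 1 cell line, and no untransfected group entered any comparison. Each comparison asked whether the levels of these genes differed between cells given an ASO against NESPR and cells of the same line given the control.

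Neuroblastoma arises from sympathoadrenal precursors, and its cells commonly keep the machinery for making noradrenaline. Tyrosine hydroxylase converts tyrosine to DOPA with tetrahydrobiopterin as cofactor, DOPA decarboxylase makes dopamine from it, vesicular transporters carry dopamine into dense-core granules, and dopamine beta-hydroxylase inside the granule turns it into noradrenaline. The transcription factor PHOX2A is a known activator of this programme, and chromogranins pack the granule core and serve as tissue and serum markers of neuroendocrine tumours.

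Values are deposited normalized counts, that is, gene counts divided by 1 size factor per library. Reads recovered from them ran from 9393587 to 15060356 per library. All 8 neuroblastoma markers examined (PHOX2A, HAND2, GATA3 and MYCN among them) had a mean of at least 10 in each line, and their summed level ran from 44522 to 83865 per library. Of 6 immune markers, the T cell gene CD3E was at 0 in all 3 tables. A mean of at least 10 was reached by 2 of these 6 in NGP, 1 in SK-N-BE(2)c and 0 in IMR32. IMR32 was scaled apart from the other lines, so its levels are not set against theirs. The labels give no gene ID for NESPR, and its own level was not checked here. For NGP and for SK-N-BE(2)c, control replicate 1 has a column spelled differently from replicates 2 and 3, and whether all 3 received the same oligonucleotide is not stated beyond their shared title. The labels also do not say whether libraries came from separate cultures, so p-values measure only the spread between libraries, which may be technical. In IMR32, replicate 1 of each group stood apart: its chi-square per degree of freedom against the other replicates of its group was 2.63 to 7.33, while those others gave 1.27 to 2.37 among themselves, and it had the highest DBH, GCH1 and MAOA value within each of the 3 groups. Without these 3 libraries, an alternative chosen after seeing the data, the IMR32 members called higher and lower against NCA were again 1 and 4 with ASO1 and 1 and 5 with ASO2. Chi-square values as high as those of IMR32 replicate 1 also occurred between controls of the other lines. In NGP they were 7.45 for control replicates 2 and 3, 4.99 for 1 and 3 and 2.61 for 1 and 2. In SK-N-BE(2)c they were 3.46, 5.36 and 3.02 for the same pairs. In bulk RNA, fewer cells of a type and less RNA per cell cannot be told apart.

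RefSeq promoter windows (GRCh38.p14, 250 bases before to 50 bases after the transcription start) were at hand for 5 of the 10 genes, CHGA, SLC18A2, DBH, DDC and MAOA. They were searched on both strands for the cAMP response element core TGACGT, its palindromic form TGACGTCA, which contains the core on both strands, and a paired homeodomain motif (TAAT and ATTA with any 3 bases between). The 3 windows below are shown because they were the ones with a match. Capitals mark the motif, and the sequences run from the base farthest upstream. CHGA lies at chr14:92922900-92923199 and SLC18A2 at chr10:117240864-117241163, each with TGACGTCA starting at -54 and -48 from the transcription start, respectively. DBH lies at chr9:133636113-133636412 with 1 TGACGT at -181 and no TGACGTCA. All 3 are on the plus strand.
CHGA: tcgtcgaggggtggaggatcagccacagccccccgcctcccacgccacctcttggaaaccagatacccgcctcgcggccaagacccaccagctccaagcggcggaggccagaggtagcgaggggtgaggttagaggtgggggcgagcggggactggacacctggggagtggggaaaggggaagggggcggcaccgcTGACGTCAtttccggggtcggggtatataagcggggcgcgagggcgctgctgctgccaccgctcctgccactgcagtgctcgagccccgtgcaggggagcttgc
SLC18A2: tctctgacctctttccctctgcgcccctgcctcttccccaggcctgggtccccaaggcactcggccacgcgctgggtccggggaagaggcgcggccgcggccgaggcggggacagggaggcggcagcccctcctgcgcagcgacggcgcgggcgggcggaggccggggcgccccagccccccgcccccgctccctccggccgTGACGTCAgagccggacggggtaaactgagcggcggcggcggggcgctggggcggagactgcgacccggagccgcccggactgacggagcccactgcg
DBH: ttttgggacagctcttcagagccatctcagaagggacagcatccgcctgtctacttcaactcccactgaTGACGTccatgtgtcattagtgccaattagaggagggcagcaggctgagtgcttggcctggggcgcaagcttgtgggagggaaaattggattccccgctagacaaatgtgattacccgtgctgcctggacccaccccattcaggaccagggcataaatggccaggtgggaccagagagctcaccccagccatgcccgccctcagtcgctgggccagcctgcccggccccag
Neither window of DDC (chr7:50561022-50561321 and chr7:50565356-50565655, minus strand) nor that of MAOA (chrX:43656049-43656348, plus strand) held TGACGT. The homeodomain motif in its paired form, with exactly 3 bases between, was in none of the 6 windows. Single TAAT or ATTA cores were not searched for, and the DBH window printed above does hold ATTA. The search thus does not show that a window lacks homeodomain sites. Of all 35116 RefSeq promoter windows, 7.98% held TGACGT, 1.85% held TGACGTCA and 0.364% held the homeodomain motif. The CHGA window was 69.3% G or C, that of SLC18A2 78.7% and that of DBH 59.3%, against a median of 58.7% over all windows.

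In control-treated cells the 10 genes ranked in a different order in each line. Per kilobase of exon, NCA-treated IMR32 cells had most DBH transcript, with a normalized count of 1305 ± 43 (SD, n = 4), followed by CHGA at 954 ± 13.1 and CHGB at 478 ± 17.9. TH, the first enzyme, stood at 8.06 ± 1.2 per kilobase in the same libraries, the lowest of all but SLC18A1. SLC18A1, the vesicular transporter typical of adrenal chromaffin cells, was at 0 reads in 3 of the 4 IMR32 control libraries. After CHGB, the order in IMR32 was GCH1, MAOA, DDC, SLC6A2, SLC18A2, TH and SLC18A1, and no neighbours in the whole order had overlapping libraries.

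NGP control cells led with CHGA at 4460.0 ± 259.8 per kilobase (SD, n = 3), then TH at 1088 ± 41.4 and CHGB at 485 ± 7.96. DDC, SLC6A2 and DBH came next, GCH1 and MAOA had overlapping libraries at 62.3 ± 8.46 and 50.1 ± 6.77, and SLC18A2 and SLC18A1 were lowest, at 12.5 ± 1.64 and 8.33 ± 0.537. SK-N-BE(2)c control cells also led with CHGA at 7613 ± 595 per kilobase (SD, n = 3) and CHGB at 1405 ± 68. There, SLC6A2, DBH and DDC formed a group with overlapping libraries from 985 ± 17.5 to 863 ± 31.5, TH stood at 564 ± 49.1, and MAOA was lowest at 2.24 ± 0.362. SLC18A1 reached 353 ± 8.86 per kilobase, above GCH1 at 125 ± 5.34 and SLC18A2 at 100.0 ± 9.75.

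**Figure D1:**
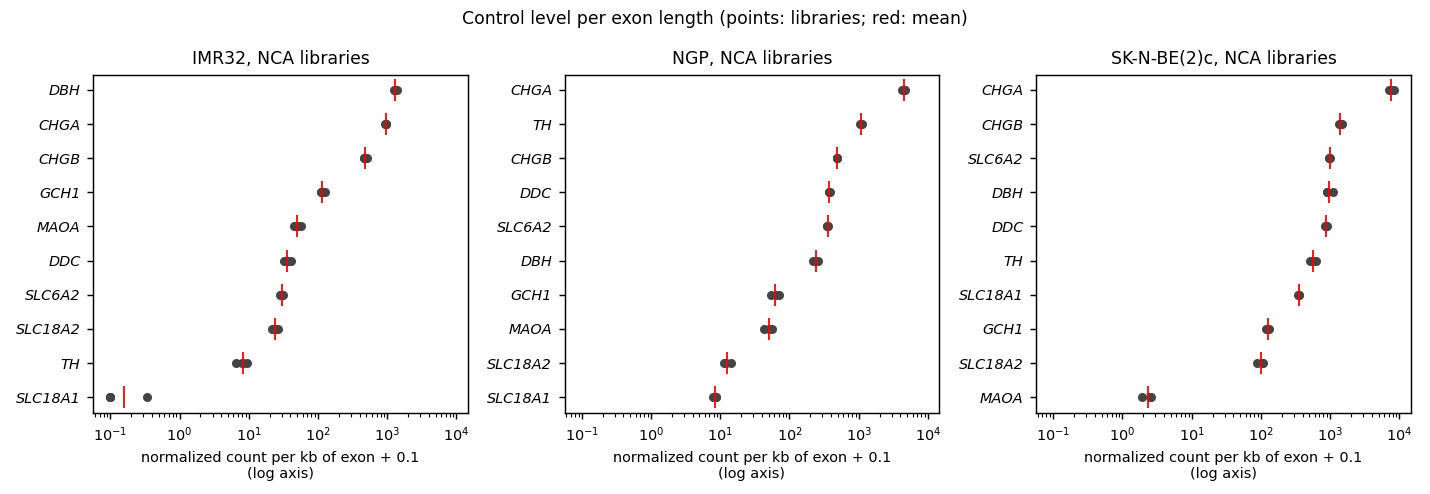
Normalized count per kilobase of exon plus 0.1 (log axis) of the 10 genes in the NCA libraries of each line. Points are libraries (4 in IMR32, 3 in NGP and SK-N-BE(2)c) and red ticks are means. Genes are ordered by mean within a line, with DBH at the top in IMR32 and CHGA at the top in the other lines. TH is next to last in IMR32 and second in NGP.

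NGP and SK-N-BE(2)c were scaled jointly and could be compared in one limma fit of log2(normalized count + 1) over their 18 libraries. All 10 genes differed between the control groups of the 2 lines, 8 higher and 2 lower in SK-N-BE(2)c, where 37.3% of 14537 genes tested were higher and 39.8% lower. The widest gaps were those of SLC18A1 and MAOA. SLC18A1 had normalized counts of 33.7, 30.1 and 33.8 in NGP control libraries and 1393, 1342 and 1408 in those of SK-N-BE(2)c, a log2 difference of 5.37 (SE 0.12, adjusted p = 4.23e-22). MAOA, the mitochondrial enzyme that oxidises catecholamines, went the other way, with 282, 237 and 312 in NGP and 13.6, 10.1 and 13.5 in SK-N-BE(2)c (log2 difference -4.38, SE 0.19, limma adjusted p = 3.41e-16). SLC18A2 was higher in SK-N-BE(2)c by 2.98 on the log2 scale, DBH by 2.00, CHGB by 1.53, SLC6A2 by 1.47, DDC by 1.20, GCH1 by 1.01 and CHGA by 0.77. TH was the other gene that was lower there (-0.95). In each of these pairs the control libraries of the 2 lines did not overlap.

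Against the control ASO, 4 to 7 of the members tested were lower in each contrast and 0 to 2 were higher, and the noradrenaline transporter SLC6A2 was the one member called lower with every ASO in every line. The granin CHGB was called higher in 3 of the 6 contrasts, with ASO1 in IMR32 and with ASO2 in the other lines. It was lower with ASO2 in IMR32 and gave no call with ASO10 in either line. Calls were made at a limma adjusted p under 0.05 over all genes tested in a line, those with a mean normalized count of at least 10. SLC18A1 did not reach that mean in IMR32, so 9 of the 10 genes were tested there and 10 in the other lines. In IMR32, ASO1 gave 1 member higher and 4 lower (13.6% and 14.4% of all 17309 genes tested), and ASO2 gave 1 higher and 5 lower (17.6% and 14.8%). In NGP, ASO2 gave 1 higher and 6 lower (30.6% and 28.1% of 14440 genes), and ASO10 gave 1 higher and 5 lower (26.8% and 27.6%). For SK-N-BE(2)c, ASO2 gave 2 higher and 7 lower (33.6% and 33.4% of 13556 genes), and ASO10 gave 0 higher and 7 lower (27.8% and 31.1%). Because so large a share of all genes changed in NGP and SK-N-BE(2)c, a single call among the 10 is common there. Libraries of the ASO and control groups did not overlap for 6 members with ASO1 and 5 with ASO2 in IMR32, where 27.6% and 30.4% of all genes had no overlap. The same held for 7 members with ASO2 and 8 with ASO10 in NGP (62.4% and 59.1% of all genes), and for 8 members with either ASO in SK-N-BE(2)c (69.3% and 64.7%).

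The median log2 fold change over the members tested was -0.097 with ASO1 and -0.23 with ASO2 in IMR32, where the median over all genes was -0.003 and -0.0008. It was -0.27 with ASO2 and -0.34 with ASO10 in NGP, beside 0.0090 and -0.026 over all genes. The SK-N-BE(2)c medians were -0.34 (ASO2) and -0.33 (ASO10), beside -0.016 and -0.031. Both contrasts of a line share its control libraries, so they are not independent of each other. The summed level of the 8 neuroblastoma markers lay below the control range in SK-N-BE(2)c, at 44522 to 47271 with ASO2 and 45083 to 48443 with ASO10 against 56821 to 61793 with NCA. In NGP it was 72048 to 76570 with ASO2 and 75519 to 79362 with ASO10 against 79316 to 83865, and in IMR32 it was 45430 to 51029 with ASO1 and 48821 to 54990 with ASO2 against 51850 to 54655. The share of this in the members' values was not tested.

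**Figure D2:**
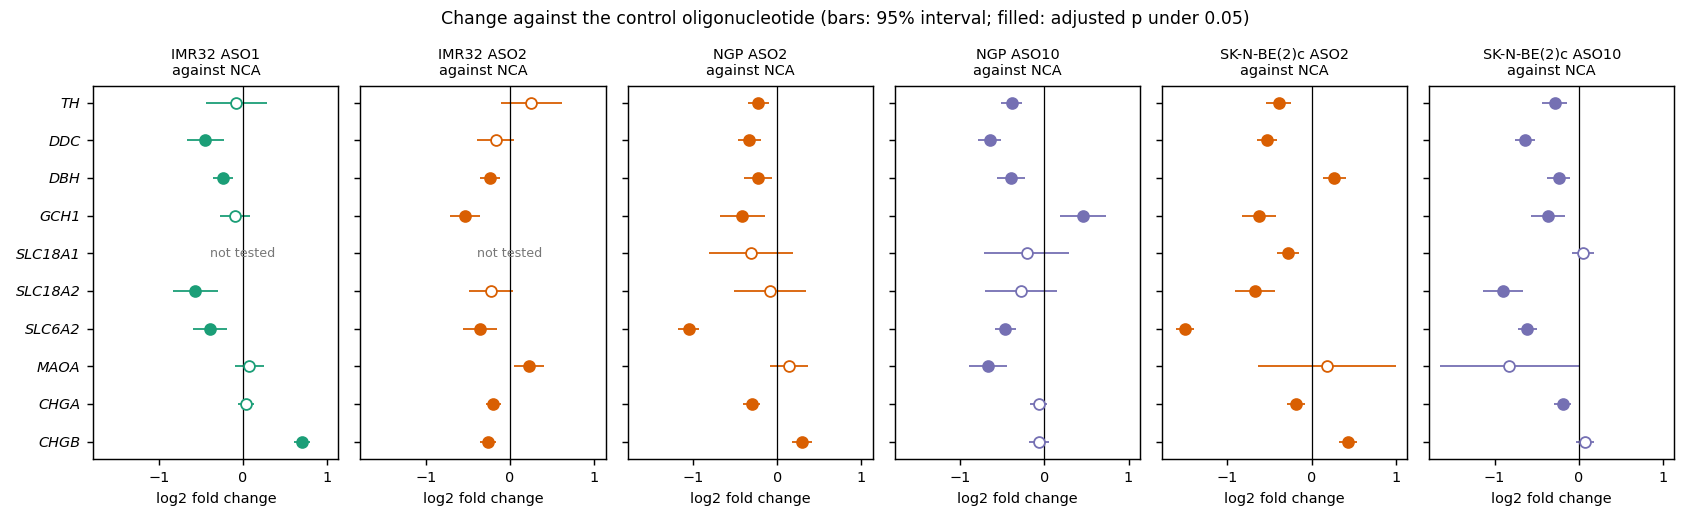
Log2 fold change of the 10 genes against NCA in each of the 6 contrasts, from limma on log2(normalized count + 1). Points are estimates with 95% confidence intervals, and filled points have an adjusted p under 0.05. SLC6A2 is filled and left of 0 in all 6 panels, from -1.51 to -0.36, while CHGB is right of 0 and filled in 3 of them.

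**Figure D3:**
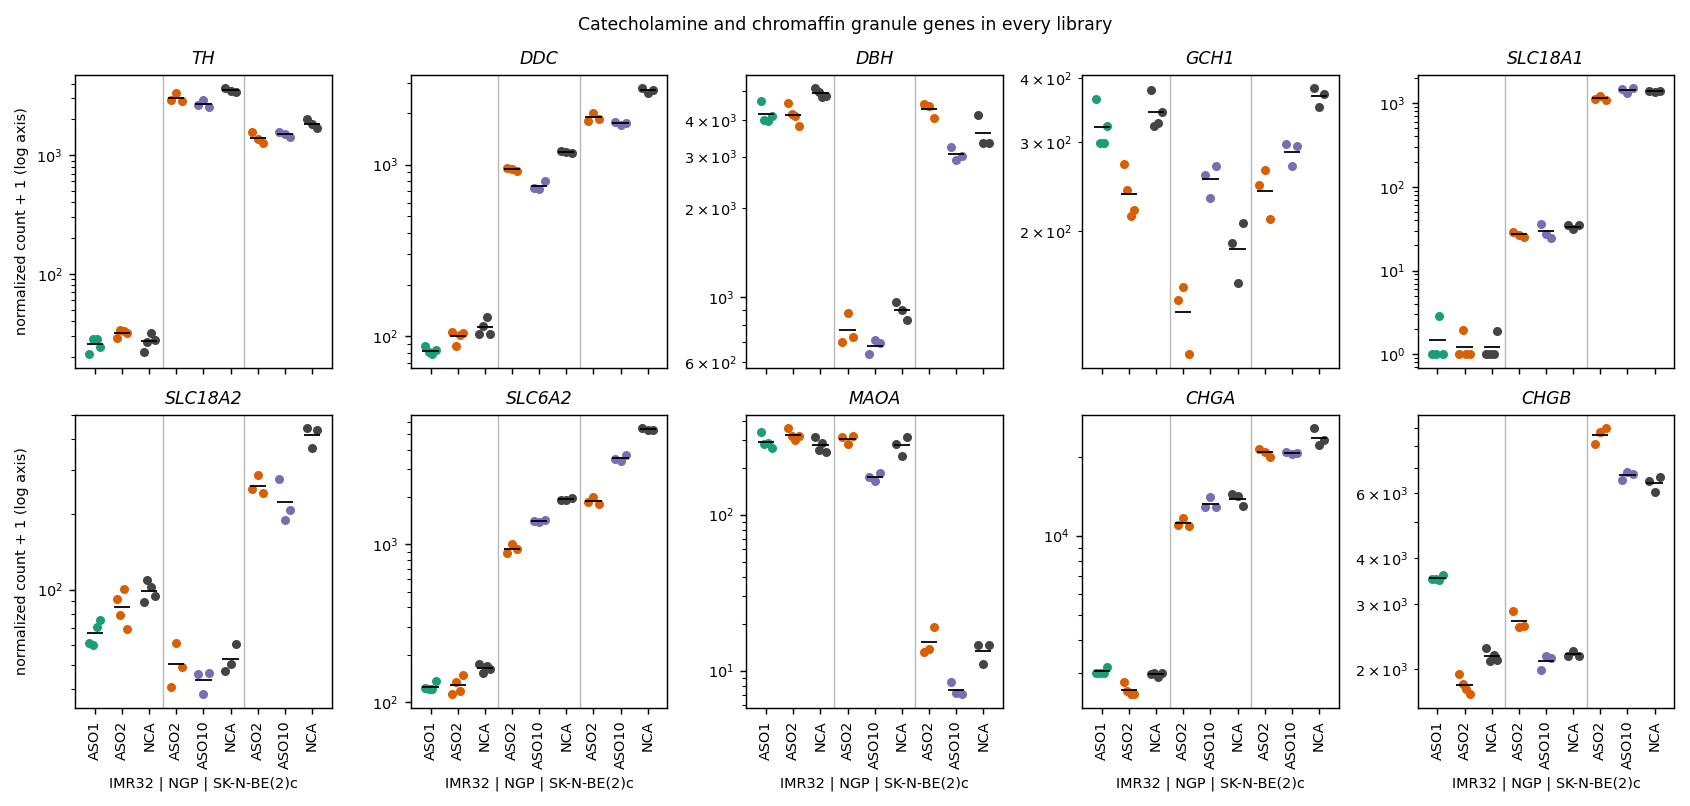
Normalized count plus 1 (log axis) of each gene in each of the 30 libraries, with bars at the group means. Groups run from IMR32 through NGP to SK-N-BE(2)c, parted by grey lines. IMR32 was scaled apart, so heights are comparable within IMR32 and between the other lines only. ASO libraries of SLC6A2 lie below those of NCA in all 3 lines.

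Among the enzymes of synthesis, TH fell with both ASOs in SK-N-BE(2)c and NGP. TH (ENSG00000180176) catalyses the rate-limiting step. In NGP its normalized counts were 3678, 3483 and 3421 with NCA, 2882, 3303 and 2873 with ASO2 and 2631, 2891 and 2558 with ASO10. Every ASO library lay below every control library, and the log2 fold changes were -0.23 (SE 0.06, adjusted p = 0.0022) for ASO2 and -0.39 (SE 0.06, adjusted p = 5.36e-06) for ASO10, by limma. SK-N-BE(2)c counts were 1992, 1824 and 1674 with NCA, 1573, 1357 and 1257 with ASO2 and 1565, 1494 and 1432 with ASO10. Again no ASO library reached the control range, at log2 values of -0.39 and -0.29 (limma adjusted p = 2.72e-05 and 0.00132). Neither ASO passed the test in IMR32, where TH is a minor transcript with 21.2, 25.9, 30.8 and 26.6 in control libraries. The estimates there were -0.081 (95% interval -0.44 to 0.28) with ASO1 and 0.25 (-0.11 to 0.61) with ASO2.

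DDC (ENSG00000132437), which makes dopamine from DOPA, fell in 5 of the 6 contrasts. With NCA, NGP libraries held 1195, 1177 and 1162, with ASO2 955, 940.0 and 912 and with ASO10 734, 718 and 799. The 3 NGP groups did not overlap one another and ASO10 was lowest, with log2 fold changes of -0.33 (SE 0.065, adjusted p = 0.000106) for ASO2 and -0.65 (SE 0.065, adjusted p = 5.64e-09) for ASO10, by limma. SK-N-BE(2)c had 2794, 2599 and 2727 with NCA, 1781, 2004 and 1849 with ASO2 and 1776, 1704 and 1738 with ASO10. Both ASO groups lay wholly below the controls there, at -0.53 and -0.64 on the log2 scale (limma adjusted p = 4.17e-09 and 2.05e-10). In IMR32, control libraries had 103, 115, 129.6 and 102, ASO1 libraries 86.7, 79.7, 77.7 and 82.7 and ASO2 libraries 105, 87.6, 102 and 104. ASO1 was below the control range (-0.45, SE 0.11, adjusted p = 0.00307, limma), whereas ASO2 overlapped it (-0.17, 95% interval -0.39 to 0.052).

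DBH (ENSG00000123454) was the only synthetic enzyme called in all 6 contrasts, lower in 5 and higher in 1. In IMR32 it had 5143, 4964, 4777 and 4833 with NCA, 4637, 3983, 3969.6 and 4135 with ASO1 and 4565, 4183, 4125 and 3809 with ASO2. Both ASO groups lay below the controls, with nearly equal log2 fold changes of -0.24 (SE 0.057, adjusted p = 0.0032) and -0.24 (SE 0.057, adjusted p = 0.00263), by limma. In NGP the counts were 959.7, 898 and 835 with NCA, 700.0, 878 and 731 with ASO2 and 636, 710.4 and 695 with ASO10. ASO10 lay wholly below the controls (-0.40, SE 0.082, adjusted p = 0.000223, limma), while ASO2 replicate 2 was inside the control range (-0.23, SE 0.082, adjusted p = 0.0208, limma). The ASO2 call was lost when ASO2 replicate 1 (-0.16, limma adjusted p = 0.142), ASO2 replicate 3 (-0.19, 0.0913) or NCA replicate 1 (-0.18, 0.117) was left out.

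The ASOs of SK-N-BE(2)c moved DBH in opposite directions. Its counts were 4152, 3346 and 3344 with NCA, 4519, 4471 and 4049 with ASO2 and 3236, 2923 and 3003 with ASO10. Control replicate 1, the library with the other spelling, was the highest of the 3 controls and lay inside the ASO2 range. ASO2 was higher than NCA, at 0.27 (SE 0.067, adjusted p = 0.000812), and ASO10 lower, at -0.24 (SE 0.067, adjusted p = 0.00361), both by limma. With libraries rescaled to the same total the ASO2 value was 0.13 (limma adjusted p = 0.0833), and without control replicate 1 the ASO10 value was -0.13 (0.0635). DBH-AS1, on the opposite strand, covers 3.1% of the exon bases of DBH in GENCODE release 29. Whether reads were counted by strand is not stated. DBH-AS1 stood at 51.3 ± 13.3 (SD, n = 3) with NCA in SK-N-BE(2)c and 27.2 ± 7.85 with ASO2. In IMR32 it stood at 104 ± 24.6 (SD, n = 4) with NCA, and it was higher with ASO1 (0.71, SE 0.16, adjusted p = 0.00211, limma) and lower with ASO2 (-0.80, SE 0.16, adjusted p = 0.000744, limma), where DBH was at -0.24 with either. The share of DBH-AS1 reads in the DBH counts was not tested.

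GCH1 (ENSG00000131979), GTP cyclohydrolase 1, catalyses the first committed step towards tetrahydrobiopterin. Its SK-N-BE(2)c counts were 382, 351 and 371 with NCA, 245, 263 and 209.9 with ASO2 and 296, 268 and 293 with ASO10. Both ASO groups were below the controls, at -0.62 (SE 0.10, adjusted p = 3.25e-06) and -0.36 (SE 0.10, adjusted p = 0.00257) on the log2 scale (limma). In NGP the counts were 188, 157 and 206 with NCA, 146, 154 and 113 with ASO2 and 257, 231 and 268 with ASO10. The ASOs thus parted to either side of the controls without overlap, ASO2 lower (-0.42, SE 0.13, adjusted p = 0.00819) and ASO10 higher (0.46, SE 0.13, adjusted p = 0.00448), by limma. Without ASO2 replicate 3 the ASO2 value was -0.28 (limma adjusted p = 0.0799). In IMR32, GCH1 had the largest change of the members with ASO2, from 378, 321, 325 and 343 with NCA to 270.1, 240.1, 213 and 219 with ASO2 (-0.54, SE 0.085, adjusted p = 8.52e-05, limma). ASO1 libraries, at 362, 298, 298 and 321, overlapped the controls (-0.10, 95% interval -0.27 to 0.079).

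Of the vesicular monoamine transporters, SLC18A2 fell with both ASOs in SK-N-BE(2)c and with ASO1 in IMR32, and SLC18A1 fell with ASO2 in SK-N-BE(2)c. The ASO10 change of SLC18A2 in SK-N-BE(2)c was the largest of the members in that contrast. SLC18A2 (ENSG00000165646) encodes VMAT2, the transporter of neurons. SK-N-BE(2)c libraries held 442, 368 and 434 with NCA, 251, 286 and 242 with ASO2 and 275, 188 and 207 with ASO10. No ASO library reached the lowest control, and the log2 fold changes were -0.67 (SE 0.12, adjusted p = 1.28e-05) and -0.90 (SE 0.12, adjusted p = 1.98e-07), by limma. In IMR32 the counts were 88.5, 109, 101 and 93.7 with NCA, 60.2, 59.3, 70.1 and 74.4 with ASO1 and 90.3, 78.2, 99.7 and 68.6 with ASO2. ASO1 was wholly below the controls (-0.56, SE 0.13, adjusted p = 0.00208, limma), and ASO2 overlapped them (-0.23, 95% interval -0.49 to 0.039). In NGP it was a minor transcript, at 46.4, 49.6 and 59.5 with NCA, and neither ASO passed the test (-0.082 and -0.28).

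PDZD8, a gene of the opposite strand, covers 52% of the exon bases of SLC18A2 in GENCODE release 29. Since the strand setting of the counting is not stated, reads of the 2 genes may not be fully told apart. PDZD8 itself was lower with ASO2 in SK-N-BE(2)c (-1.22), where SLC18A2 was called lower at -0.67, and in NGP (-1.10). With ASO10 its log2 fold change was -0.30 in SK-N-BE(2)c, where SLC18A2 was at -0.90, and with ASO1 in IMR32 it was 0.01 (limma adjusted p = 0.924), where SLC18A2 was at -0.56. With ASO2 in IMR32 both were at nearly the same value, PDZD8 at -0.22 (limma adjusted p = 0.00809) and SLC18A2 at -0.23 without a call. In NGP with ASO2, PDZD8 went from 788 ± 43.4 (SD, n = 3) to 366 ± 24 while SLC18A2 gave no call. The share of PDZD8 reads in the SLC18A2 counts was not tested.

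SLC18A1 (ENSG00000036565) encodes VMAT1. Its SK-N-BE(2)c counts were 1393, 1342 and 1408 with NCA, 1108, 1219 and 1086 with ASO2 and 1471, 1309 and 1517 with ASO10. ASO2 was below the controls (-0.28, SE 0.066, adjusted p = 0.000461, limma) and ASO10 overlapped them (0.05, 95% interval -0.085 to 0.18). NGP held far less, 33.7, 30.1 and 33.8 with NCA, 27.9, 25.7 and 24.5 with ASO2 and 34.6, 26.6 and 23.7 with ASO10. The NGP estimates of -0.31 and -0.21 had intervals of -0.82 to 0.19 and -0.71 to 0.29 and gave no call. In IMR32, 9 of 12 libraries had no SLC18A1 read, which leaves no fold change to give.

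SLC6A2 (ENSG00000103546), the noradrenaline transporter, takes noradrenaline back into the cell and is the route by which the imaging agent MIBG enters neuroblastoma cells. It was called lower in all 6 contrasts, as were 338 of the 11594 genes tested in all 3 lines (2.92%), and no other member was among these. DBH and DDC were called lower in 5 of the 6, as 828 genes were in at least 5 (7.14%). SK-N-BE(2)c libraries had 5491, 5318 and 5332 with NCA, 1856, 2016 and 1813 with ASO2 and 3491, 3374 and 3700.2 with ASO10. The 3 groups were far apart, ASO2 at 0.352 and ASO10 at 0.654 times the control level on the log2(value + 1) scale. The log2 fold changes were -1.51 (SE 0.054, adjusted p = 2.48e-18) and -0.61 (SE 0.054, adjusted p = 1.54e-10), by limma, and the ASO2 value ranked 5 by p among the 13556 genes tested.

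In NGP the same order held. SLC6A2 counts were 1922, 1927 and 1979 with NCA, 879, 1003 and 932 with ASO2 and 1403, 1379 and 1432 with ASO10. No groups overlapped, with log2 fold changes of -1.05 (SE 0.061, adjusted p = 3.69e-13) for ASO2 and -0.47 (SE 0.061, adjusted p = 4.47e-07) for ASO10, by limma. In IMR32 the counts were 172, 152, 167 and 159.9 with NCA, 122, 119.6, 119 and 135 with ASO1 and 111, 134, 117 and 147 with ASO2. Both ASO groups were below all controls and overlapped each other, at -0.39 (SE 0.10, adjusted p = 0.00454) and -0.36 (SE 0.10, adjusted p = 0.00703) (limma).

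**Figure D4:**
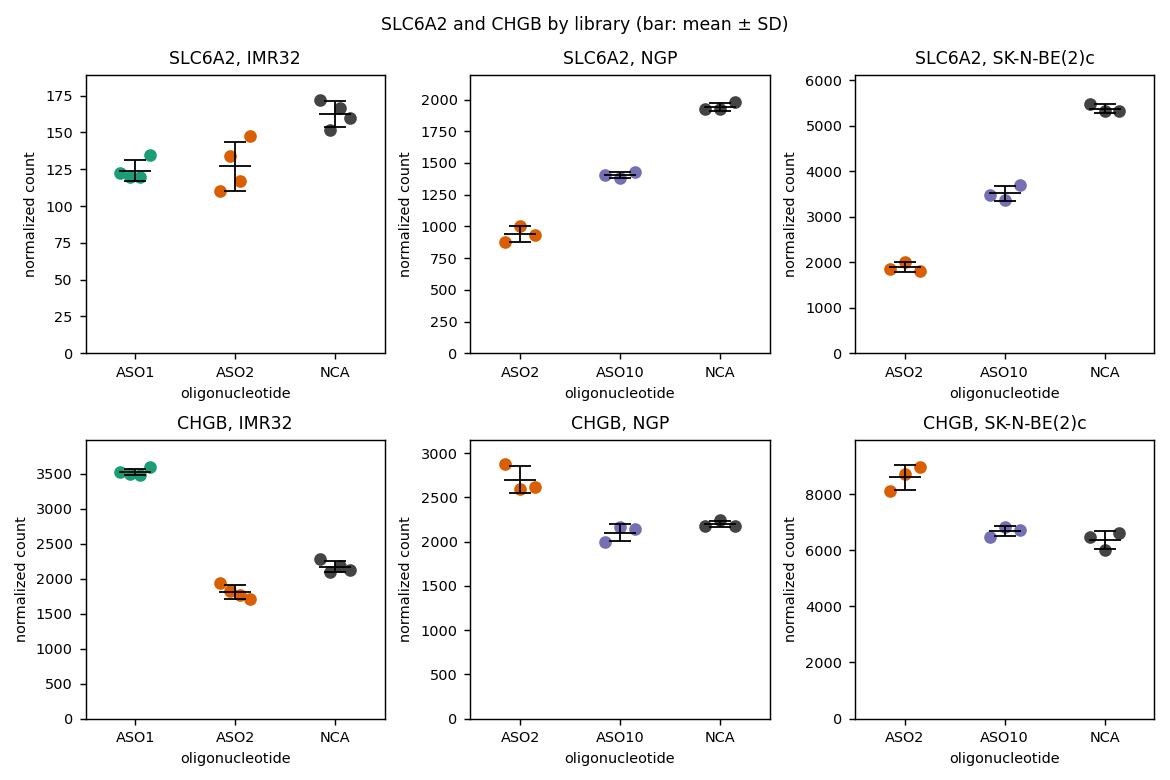
Normalized counts (linear axis from 0) of SLC6A2 (top) and CHGB (bottom) by ASO group in each line. Points are libraries and black bars are means with SD. All SLC6A2 libraries with an ASO against NESPR lie below all NCA libraries of their line. CHGB is highest with ASO1 in IMR32 and with ASO2 in NGP and SK-N-BE(2)c.

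MAOA (ENSG00000189221) gave calls in both directions. In NGP it had 282, 237 and 312 with NCA, 312, 283 and 317 with ASO2 and 173, 164 and 183 with ASO10. ASO10 was wholly below the controls (-0.67, SE 0.11, adjusted p = 1.37e-05, limma), the largest change of the members in that contrast, whereas ASO2 overlapped them (0.14, 95% interval -0.085 to 0.37). The gene was near the filter on low values in SK-N-BE(2)c, at 13.6, 10.1 and 13.5 with NCA, 12.2, 12.7 and 18 with ASO2 and 7.44, 6.14 and 6.02 with ASO10. All 3 ASO10 libraries lay below all controls there, with a log2 fold change of -0.82 (limma adjusted p = 0.0798) that missed the threshold. The ASO2 value was 0.18 with a 95% interval of -0.64 to 1.00.

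In IMR32, MAOA counts were 314, 259, 287 and 251 with NCA, 335, 283, 286 and 267 with ASO1 and 358, 320.1, 298 and 319 with ASO2. All 3 groups overlapped. ASO2 passed the test narrowly (0.22, SE 0.085, adjusted p = 0.0479, limma) and did not without a filter on low values (adjusted p = 0.0765, limma), with rescaled libraries (0.0614, limma) or by DESeq2 on recovered reads (0.0664). Leaving out any of 8 of the 12 libraries also ended this call, ASO1 replicates 2 and 3, ASO2 replicates 1, 2 and 4 and NCA replicates 2, 3 and 4, with log2 values of 0.17 to 0.24 and limma adjusted p from 0.0552 to 0.157. ASO1 gave 0.078 (95% interval -0.10 to 0.25).

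The granins did not move alike. CHGA (ENSG00000100604), chromogranin A, fell by small amounts in 4 contrasts. SK-N-BE(2)c libraries had 25673, 22104 and 23065 with NCA, 21387, 20852 and 19972 with ASO2 and 20765, 20435 and 20708 with ASO10. Both ASO groups lay just below the controls, at -0.19 (SE 0.051, adjusted p = 0.00227) and -0.19 (SE 0.051, adjusted p = 0.00207) on the log2 scale (limma). In NGP they were 14409.8, 14184 and 12915 with NCA, 10972, 11691 and 10895 with ASO2 and 12856, 13994 and 12811 with ASO10. ASO2 was below the controls (-0.31, SE 0.049, adjusted p = 8.15e-06, limma), and ASO10 overlapped them (-0.065, 95% interval -0.17 to 0.036). Without NCA replicate 3 the ASO10 value passed the test (-0.11, limma adjusted p = 0.0379). In IMR32 they were 2958, 2985, 2904 and 2994 with NCA, 3007, 2996, 3009 and 3149 with ASO1 and 2774, 2567, 2495 and 2482 with ASO2. ASO2 fell (-0.20, SE 0.044, adjusted p = 0.00173, limma), whereas ASO1 libraries were all above the controls by an amount that gave no call (0.038, 95% interval -0.054 to 0.13).

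CHGB (ENSG00000089199), chromogranin B, was the member that rose most, with ASO1 in IMR32. There the counts were 2279, 2099.5, 2181 and 2118 with NCA, 3518, 3501, 3484 and 3595 with ASO1 and 1937, 1827, 1769.5 and 1709.5 with ASO2. The 3 groups were fully apart, ASO1 above the controls at 0.70 (SE 0.046, adjusted p = 1.40e-09) and ASO2 below them at -0.26 (SE 0.046, adjusted p = 0.000242), by limma. SK-N-BE(2)c libraries had 6465, 6025 and 6619 with NCA, 8103, 8729 and 8971 with ASO2 and 6487, 6839.9 and 6739 with ASO10. ASO2 was above the other groups (0.43, SE 0.051, adjusted p = 2.14e-08, limma) and ASO10 overlapped NCA (0.071, 95% interval -0.034 to 0.18). In NGP the counts were 2175, 2239 and 2178 with NCA, 2873, 2599 and 2623 with ASO2 and 1992, 2167 and 2146 with ASO10. ASO2 was higher there too (0.29, SE 0.056, adjusted p = 7.10e-05, limma), and ASO10 lay slightly under the controls without a call (-0.065, 95% interval -0.18 to 0.05).

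The oligonucleotides were also compared with each other within a line. In IMR32, 3 members were higher with ASO1 than with ASO2 and 0 were lower (9.17% and 12.8% of all genes tested, 21% without overlap): CHGB by 0.96 on the log2 scale, GCH1 by 0.44 and CHGA by 0.24 (limma adjusted p = 1.99e-11, 0.000785 and 0.000543). At an unadjusted p under 0.05, DDC (-0.28) and SLC18A2 (-0.34) were lower with ASO1, with limma adjusted p of 0.0632 and 0.0612. In NGP, 4 members were higher with ASO2 than with ASO10 and 3 lower (30.6% and 28% of all genes tested, 65% without overlap). MAOA (0.81), CHGB (0.36), DDC (0.32) and TH (0.16) were higher, and GCH1 (-0.88), SLC6A2 (-0.58) and CHGA (-0.24) were lower. The TH call there was lost without ASO2 replicate 2 (0.097), ASO10 replicate 1 (0.15) or ASO10 replicate 3 (0.13), with rescaled libraries (0.10, limma adjusted p = 0.145), without a filter on low values (limma adjusted p = 0.0505) and by DESeq2 (0.0577).

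Among SK-N-BE(2)c groups, 3 members were higher with ASO2 than with ASO10 and 3 lower (34.6% and 30.8% of all genes tested, 68.2% without overlap). DBH (0.51), CHGB (0.36) and MAOA (1.01) were higher, and SLC6A2 (-0.89), SLC18A1 (-0.33) and GCH1 (-0.26) were lower. The smallest limma adjusted p among these was that of SLC6A2 (3.49e-14), and the largest was that of MAOA (0.0298). The MAOA call was lost without ASO2 replicate 3 (0.84), ASO10 replicate 2 (0.97) or ASO10 replicate 3 (0.96), and it missed the threshold without a filter on low values (limma adjusted p = 0.095) and by DESeq2 (0.0655). The GCH1 call was lost without ASO2 replicate 3 (-0.17), ASO10 replicate 1 (-0.23) or ASO10 replicate 3 (-0.24). TH had no call (-0.11, limma adjusted p = 0.204), and it gained one as lower when the libraries were rescaled to equal totals (-0.22, limma adjusted p = 0.0121) or without ASO2 replicate 1 (-0.20, 0.0225).

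Whether an ASO acted differently in SK-N-BE(2)c than in NGP was tested as an interaction in the fit over both lines. For ASO2, 1 member was higher and 1 lower (8.79% and 7.95% of 14537 genes), and for ASO10, 0 were higher and 1 lower (8.09% and 8.78%). The ASO2 effect on SLC6A2 was more negative in SK-N-BE(2)c, with a log2 difference of -0.45 (SE 0.075, limma adjusted p = 0.000247). That on DBH was higher in SK-N-BE(2)c by 0.50 (SE 0.12, adjusted p = 0.00519), by limma. Against NCA, DBH was called lower with ASO2 in NGP and higher in SK-N-BE(2)c. The NGP call was lost without ASO2 replicate 1, ASO2 replicate 3 or NCA replicate 1, and the SK-N-BE(2)c call with rescaled libraries. The ASO10 effect on GCH1 differed by -0.82 (SE 0.17, adjusted p = 0.00214), by limma. GCH1 rose with ASO10 in NGP and fell in SK-N-BE(2)c. The 17 other interactions of the 20 tested gave no call. Among them SLC18A2 had the largest estimates, -0.59 (95% interval -1.07 to -0.10) with ASO2 and -0.62 (-1.11 to -0.14) with ASO10.

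Genes around the pathway were described by lists, whose counts stand beside a high background in NGP and SK-N-BE(2)c. Of all genes tested, 30.6% were higher and 28.1% lower with ASO2 in NGP, and 26.8% and 27.6% with ASO10. The SK-N-BE(2)c shares were 33.6% higher and 33.4% lower for ASO2, and 27.8% and 31.1% for ASO10. The IMR32 shares were 13.6% and 14.4% with ASO1 and 17.6% and 14.8% with ASO2. The 6 genes listed for the cofactor tetrahydrobiopterin, PTS, SPR, QDPR, PCBD1, PCBD2 and GCHFR, gave 0 calls higher in NGP and SK-N-BE(2)c. In NGP, 3 of 6 tested were lower with ASO2 and 3 with ASO10 (median log2 fold changes -0.36 and -0.24), and in SK-N-BE(2)c 4 of 5 tested were lower with ASO2 and 2 with ASO10 (medians -0.44 and -0.13). In IMR32 the list gave 1 call higher with ASO1, SPR (0.79), and 1 lower with ASO2, PCBD2 (-0.38), each of 6 tested. PCBD2, a dehydratase of cofactor recycling singled out after its values were seen, was lower in NGP, at -0.79 with ASO2 and -0.48 with ASO10, and in SK-N-BE(2)c, at -1.04 and -0.37.

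Of the 10 transcription factors of the noradrenergic lineage, 8 of 10 tested were lower with ASO10 in NGP (27.6% of all genes) and 6 of 9 in SK-N-BE(2)c (31.1%), with 0 higher in either (medians -0.33 and -0.33, beside -0.026 and -0.031 over all genes). With ASO2 the calls were mixed, 2 higher and 3 lower of 10 in NGP and 3 higher and 5 lower of 9 in SK-N-BE(2)c, and in IMR32 they were 3 higher and 2 lower of 9 with ASO1 and 2 higher and 1 lower with ASO2. PHOX2A was the list's one gene called lower in all 6 contrasts, with log2 fold changes of -0.41 (ASO1) and -0.38 (ASO2) for IMR32, -0.41 (ASO2) and -0.49 (ASO10) for NGP, and -0.45 (ASO2) and -0.52 (ASO10) for SK-N-BE(2)c. Its SK-N-BE(2)c level was 3227 ± 273 (SD, n = 3) with NCA, 2369.8 ± 202 with ASO2 and 2247 ± 80.6 with ASO10.

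Of the granins and peptide-processing genes other than CHGA and CHGB, SK-N-BE(2)c had 6 higher and 3 lower of 10 tested with ASO2 and 2 and 2 with ASO10. NGP had 5 higher and 3 lower of 13 with ASO2 and 1 and 4 with ASO10, and IMR32 had 1 higher and 3 lower of 9 with either ASO. PAM was the list's one gene called in 1 direction throughout. It encodes the copper enzyme that amidates peptide hormones in the granule and is related to DBH. PAM went from 307 ± 14.5 (SD, n = 3) with NCA in NGP to 182 ± 10.1 with ASO2 and 95.7 ± 11.5 with ASO10, log2 fold changes of -0.75 (SE 0.12, adjusted p = 6.45e-06) and -1.68 (SE 0.12, adjusted p = 1.26e-11) by limma. The SK-N-BE(2)c changes were -0.48 with ASO2 and -1.22 with ASO10, and in IMR32 they were -0.23 with ASO1 and -0.32 with ASO2.

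The 14 subunits and accessory proteins of the granule proton pump, which drives amine uptake, gave calls in both directions in 5 of the 6 contrasts. With ASO2, 6 were higher and 6 lower of 14 tested in SK-N-BE(2)c (33.6% and 33.4% of all genes) and 3 and 5 in NGP (30.6% and 28.1%), and with ASO10 the counts were 4 and 5 in SK-N-BE(2)c and 0 and 6 in NGP. IMR32 had 1 and 1 of 13 with ASO1 and 3 and 2 with ASO2. List medians lay between -0.13 and 0.056. The list for other synthesis and granule cofactors (PNMT, CYB561, ATP7A, ATOX1, SLC31A1, SLC23A2) had 3 higher and 2 lower of 5 tested with ASO2 in NGP and 1 and 2 with ASO10, and in SK-N-BE(2)c 0 higher and 3 lower of 6 with either ASO. In IMR32, 1 of its 4 genes tested was lower with ASO1 and 1 higher with ASO2.

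The 8 genes listed for breakdown and other uptake, such as MAOB and SLC6A3, gave 4 calls higher and 0 lower with ASO10 in NGP (6 tested) and 3 and 0 in SK-N-BE(2)c (5 tested). With ASO2 they gave 2 higher and 3 lower in NGP and 1 and 2 in SK-N-BE(2)c, and in IMR32 there were 0 higher and 3 lower of 6 with ASO1 and 0 and 2 with ASO2. Of the cholinergic genes, which mark the other transmitter type of sympathetic neurons, CHAT was tested in IMR32 only and was higher there with ASO1 (0.16) and ASO2 (0.21). CHAT stood at 891 ± 38.3 (SD, n = 4) with NCA, 994 ± 52.2 with ASO1 and 1033 ± 18.9 with ASO2. ACHE was lower with ASO1 in IMR32 (-0.91) and SLC18A3 with both ASOs in SK-N-BE(2)c (-0.45 and -0.50), and no gene of this list was tested in NGP. The catecholamine receptors had 3 higher and 0 lower of 5 tested in IMR32 with ASO1 and 2 and 1 with ASO2. NGP had 1 and 1 of 4 with ASO2 and 1 and 0 with ASO10, and SK-N-BE(2)c had 1 and 1 of 3 with ASO2 and 1 and 2 with ASO10.

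**Figure D5:**
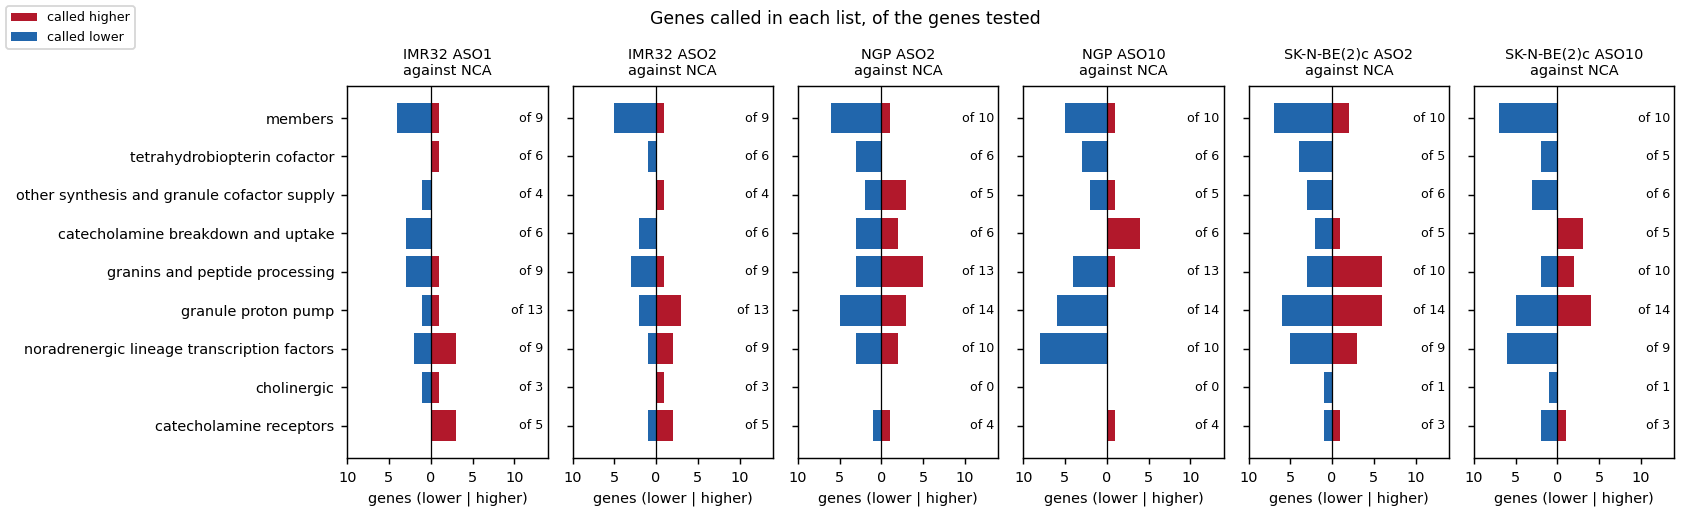
Number of genes called higher (red, to the right) and lower (blue, to the left) against NCA in each list, for the 6 contrasts. The number at the right of each row is how many of the list were tested. The row named members holds the 10 genes described here, with 4 to 7 called lower in each panel, and the row of transcription factors reaches 8 lower with ASO10 in NGP.

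Markers of other cell types were examined beside these values. Summed levels of 8 fibroblast or mesenchymal markers ran from 1464 to 3161 per library, of which 4 had a mean of at least 10 in IMR32, 5 in SK-N-BE(2)c and 6 in NGP. These sums lay wholly below the controls with ASO1 in IMR32 (2494 to 2638 against 3062 to 3161), with both ASOs in NGP (1908 to 1959 with ASO2 and 1639 to 1780.1 with ASO10 against 2026 to 2205) and with ASO10 in SK-N-BE(2)c (1464 to 1661 against 1870.2 to 1956). Single markers did not follow the sums in NGP. There, 4 were called higher and 1 lower of 6 tested with ASO2, and 2 and 1 with ASO10 (median log2 fold changes 0.60 and 0.13). With ASO1 in IMR32, 0 were higher and 2 lower of 4 tested, and with ASO10 in SK-N-BE(2)c, 0 and 2 of 5. The shares over all genes are those given with the lists above. Schwann cell precursor markers (6 genes) summed to 11.1 to 101, and under ASO10 in NGP to 67.1 to 83.7 against 17.4 to 31.0 with NCA. Immune markers (6 genes) summed to 6.39 to 152, with 114 to 152 under ASO10 in NGP against 26.7 to 45.2 with NCA, and PTPRC as well as CD3E was at 0 in NGP. In SK-N-BE(2)c they summed to 45.3 to 63.5 with ASO2 and 53.0 to 57.3 with ASO10 against 28.3 to 31.3, and in IMR32 to 16.7 to 18.8 with ASO2 against 7.69 to 9.44. Endothelial markers (5 genes) summed to 2.02 to 84.9, and in SK-N-BE(2)c to 14.4 to 21.8 with ASO2 and 8.37 to 13.8 with ASO10 against 2.02 to 5.78. SOX10 and KDR were at 0 in SK-N-BE(2)c. Every group was a culture of 1 cell line, so these sums are levels of the named genes and not a measure of such cells. Their relation to the members' values was not tested.

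Genes whose pattern was most like that of TH, DBH, CHGA or CHGB were found by the Pearson correlation of log2(normalized count + 1), centred on each line's mean, over the 30 libraries and 11593 genes tested in all 3 lines. These libraries share groups and size factors, and the correlations are descriptions only. For TH they were STRA6 (0.794), DYNC2I1 (0.770) and WNK2 (0.745). For DBH they were CDKAL1 (0.804), SNRPA (0.794) and LMAN2 (0.789). For CHGA they were KREMEN1 (0.845), CORO7 (0.810) and TXNRD2 (0.807). For CHGB they were NEFM (0.847), a neurofilament subunit, TRAPPC3 (0.827) and PEG10 (0.827).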

How the data were processed

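Per the submitters' processing notes, FastQC 0.11.8, cutadapt 1.18, STAR 2.6.0, HTSeq 0.6.1 and DESeq2 1.42.0 were used with hg19 and GRCh37, with no role or order given. Annotation release and strand setting are not given in the sources used here. Per the labels' protocols, libraries came from a stranded total RNA kit (paired-end) or a stranded mRNA kit (single-end), without saying which had which. Total RNA libraries also count unspliced and non-polyadenylated RNA, which can change levels. The deposited values are a normalized signal, gene counts divided by 1 size factor per library. With those factors recovered from the steps between low values, 100% of values were whole reads (within 0.001) in all 30 libraries. The median ratio to the geometric mean library was 1.01 in each of 18 libraries when SK-N-BE(2)c and NGP were pooled, and 1.01 in each IMR32 library within its own table, so the former were read as scaled jointly and IMR32 as scaled alone. In IMR32, 174 rows without a gene ID (0.172% of values) were left out. No column of sample values was left unmapped (0 columns).

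Log2(value + 1) was tested with limma 3.58.1 (R 4.3.3, mean-variance trend, 1 mean per group, 1 fit per line, and 1 fit over NGP and SK-N-BE(2)c). Genes with a mean of at least 10 were tested, with Benjamini-Hochberg adjustment over all of them and a threshold of 0.05. This scale understates changes of low genes. Levels per kilobase used exon unions of GENCODE release 29. The fits were tested on simulated data. Alternatives were pseudocounts 0.5 and 5, no filter, rescaling to equal totals, edgeR 4.0.16 and DESeq2 1.42.0 on recovered reads, a replicate block, leaving out each library and, added after seeing the data, leaving out replicate 1 of each IMR32 group. No 2 replicates agreed within sampling noise (chi-square over its degrees of freedom at least 1.27). Intervals from limma cover the spread between libraries. The 10 genes and all lists were chosen with earlier results of these data known. By rule, the text names all 10 genes, list genes called in the same direction in every contrast where tested, the member with the largest change in each contrast, and for 4 members the 3 most similar genes. Names beyond this rule were chosen after their values were seen, and some genes are not reported here.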

Additional observations from a re-analysis of the deposited data

Results flagged for a closer look

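Of the 30 combinations of member and IMR32 group examined for a library far from the others, 4 had one. For CHGA and other well-measured genes, chance gives about 1 in 20 groups, a rate that does not hold for SLC18A1, where any lone read sets a library apart. For SLC18A1 this was the lone library with any read in each group: ASO1 replicate 3 at 1.90 normalized counts, ASO2 replicate 2 at 0.942 and NCA replicate 4 at 0.919, with 0 in the others. For CHGA it was ASO1 replicate 4 in IMR32, the last of the values 3007, 2996, 3009 and 3149 for replicates 1 to 4 in order.

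Of 20 tests of whether an ASO effect differed between SK-N-BE(2)c and NGP, 3 passed (limma), beside 8.79% of all genes higher and 7.95% lower for ASO2 and 8.09% and 8.78% for ASO10. The ASO2 effect on DBH was 0.50 higher in SK-N-BE(2)c on the log2 scale (adjusted p = 0.00519), that on SLC6A2 was -0.45 (0.000247), and the ASO10 effect on GCH1 was -0.82 (0.00214).

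CHGB moved in opposite directions with the same oligonucleotide. With ASO2, all 4 IMR32 libraries lay below their controls (log2 fold change -0.26), while all 3 lay above theirs in SK-N-BE(2)c (0.43) and NGP (0.29). The difference between IMR32 and each of the other lines was not tested.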

How the results depend on the processing

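Of the 40 called values of members against NCA, 35 kept direction and call under all 7 planned settings, every left-out library and, in IMR32, without replicate 1 of each group, and 0 of 684 values changed sign. With edgeR on recovered reads, 4897 and 5630 genes were called in IMR32 (ASO1 and ASO2 against NCA), 8495 and 7928 in NGP and 9080 and 8073 in SK-N-BE(2)c (ASO2 and ASO10), beside 4850, 5607, 8477, 7850, 9078 and 7981 with limma. Rescaling to equal totals shifted the median of all genes by -0.14 for ASO2 against NCA and -0.11 for ASO2 against ASO10 in SK-N-BE(2)c. The share of called genes that were higher went from 50.2% to 38.4% and from 52.9% to 42.2% there, from 41.8% to 59.8% for ASO1 against ASO2 in IMR32, and from 52.5% to 32.9% for the ASO2 interaction. Counts of members called that differed under another setting were as follows. For ASO2 in IMR32, 0 in place of 1 were higher without a filter, rescaled and by DESeq2. For ASO1 against ASO2 in IMR32, 2 in place of 0 were lower with a replicate block, DDC (-0.28, adjusted p = 0.0451, limma) and SLC18A2 (-0.34, 0.0307). For ASO2 in SK-N-BE(2)c, 1 in place of 2 was higher when rescaled. Of the interactions, 2 in place of 1 were lower for ASO10 with pseudocount 5, SLC18A2 included, and 2 in place of 1 for ASO2 when rescaled, DDC included. For ASO2 against ASO10, 3 in place of 4 were higher in NGP without a filter, rescaled and by DESeq2. For the same comparison in SK-N-BE(2)c, 2 in place of 3 were higher without a filter and by DESeq2, and 4 in place of 3 were lower when rescaled, TH included (-0.22, adjusted p = 0.0121, limma). The cause was not tested.

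Replicate numbers were not taken to pair the libraries, since in no pair of groups did every same-number correlation exceed 0.1 (0.055 to 0.318 for ASO1 and NCA in IMR32, where 6 of 8 libraries were closest to their own number), and beyond the counts above the block changed no call of a member. In IMR32 the block called 6609 genes in place of 4850 (ASO1 against NCA), 7419 in place of 5607 (ASO2 against NCA) and 5677 in place of 3795 (ASO1 against ASO2), and without replicate 1 of each group, 5729, 6631 and 5016 were called. DBH was then at -0.0024 for ASO1 against ASO2. With 1 library left out, members called higher ran from 0 to 1 for ASO2 in IMR32, and, for ASO2 against ASO10, from 3 to 5 in NGP and, for SK-N-BE(2)c, 2 to 4. Members called lower ran from 0 to 1 for ASO1 against ASO2 in IMR32, 4 to 6 and 5 to 6 for ASO2 and ASO10 in NGP, 6 to 7 for ASO10 and 2 to 4 for ASO2 against ASO10 in SK-N-BE(2)c, and 1 to 2 in each interaction. The 4 in NGP came without ASO2 replicate 3, the 1 in IMR32 without ASO1 replicate 4, ASO2 replicate 2 or ASO2 replicate 4, and the 2 of the interactions without NGP NCA replicate 3 (both), NGP ASO2 replicate 1 or SK-N-BE(2)c ASO2 replicate 2 (ASO2), or NGP ASO10 replicate 2 or SK-N-BE(2)c ASO10 replicate 1 (ASO10), and the other counts against NCA and between ASOs kept their value.

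Values that changed sign were all without a call. Rescaling gave 0.025 for SLC6A2 (IMR32 ASO1 against ASO2), -0.0029 for DDC and -0.11 for CHGA (SK-N-BE(2)c ASO2 against ASO10), -0.037 for SLC18A1 and -0.017 for MAOA (ASO2 interaction) and -0.00062 for DDC (ASO10 interaction). CHGA was -0.025 by edgeR and -0.022 by DESeq2, and DDC in the ASO10 interaction was -0.0030 by edgeR. Pseudocount 5 gave -0.0032 for SLC18A1 (ASO2 interaction) and 0.066 for MAOA (ASO10 interaction). With 1 library left out, the ranges that crossed 0 were -0.17 to 0.0090 for TH with ASO1 in IMR32, -0.047 to 0.048 for DBH and -0.092 to 0.045 for SLC6A2 (ASO1 against ASO2 in IMR32), -0.23 to 0.057 for SLC18A2 with ASO2 in NGP, -0.22 to 0.047 for SLC18A1 (ASO2 against ASO10 in NGP), -0.016 to 0.033 for CHGA (SK-N-BE(2)c ASO2 against ASO10), -0.018 to 0.086 for SLC18A1 and -0.13 to 0.15 for MAOA (ASO2 interaction), and -0.016 to 0.060 for DDC (ASO10 interaction). Low counts limit SLC18A1 in IMR32 and NGP, SLC18A2 in NGP and MAOA in SK-N-BE(2)c.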

Other observations

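Some neighbours of the pathway were chosen after their values were seen. SCG5, a granin-like chaperone of the convertase PCSK2, fell with ASO2 and rose with ASO10, at -2.02 and 2.30 for NGP and -0.84 and 0.38 for SK-N-BE(2)c. SLC6A3, the dopamine transporter, was higher with ASO10 in NGP (3.74) and gave 0.82 with ASO2 there without a call.

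VGF, a secreted granin-family protein, was higher with both ASOs in IMR32 (0.34 with ASO1, 0.38 with ASO2) and SK-N-BE(2)c (1.43 with ASO2 and 0.46 with ASO10), and in NGP with ASO2 (0.46). ADRA2A, the alpha-2A adrenergic receptor, was higher in IMR32 (0.70 with ASO1 and 0.70 with ASO2), for SK-N-BE(2)c (0.92 with ASO2 and 0.65 with ASO10) and in NGP with ASO2 (0.75). With ASO10 in NGP neither gave a call (0.09 for VGF and -0.0055 for ADRA2A). All values are log2 fold changes against NCA, called by limma at an adjusted p under 0.05.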
